A study of Mus musculus with 15 samples.

Results

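The paired box genes, Pax1, Pax2, Pax3, Pax4, Pax6, Pax7, Pax8 and Pax9 (8 genes) were followed by DNA methylation in sorted mouse blood progenitors. They are the members of the family other than Pax5, the B cell gene, and were taken by name out of 31492 annotated genes. CpGs within each gene and 10 kb to either side were read in 1 kb windows. A window was tested when it held at least 3 CpGs with at least 10 reads in each of the 15 libraries. Of 29251 such windows, 40 belonged to these genes, with 14 at Pax2, 9 at Pax7, 5 at Pax1, 5 at Pax6, 4 at Pax9 and 3 at Pax3. Pax4 and Pax8 had no tested window, and are given by single CpGs.

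Pax proteins bind DNA through a paired domain and direct organ formation in the embryo. Pax1 and Pax9 act in the vertebral column and the pharyngeal pouches, Pax2 and Pax8 in kidney, ear and thyroid, Pax3 and Pax7 in neural crest and skeletal muscle, and Pax4 and Pax6 in endocrine pancreas and eye. The start regions of such developmental genes lie in CpG-rich DNA that is mostly free of methylation in cells that do not use the gene. Dnmt3a adds methyl groups to unmethylated DNA, and mutant Idh2 makes a metabolite that blocks the TET enzymes, which start the removal of methyl groups.

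The libraries were made by reduced representation bisulfite sequencing, which reads the CpG-rich part of the genome after digestion and bisulfite treatment. The cells were bone marrow granulocyte macrophage progenitors (GMP, Lin-cKit+, Sca1-, CD34+, Cd16/32+) and megakaryocyte erythroid progenitors (MEP, Lin-cKit+, Sca1-, CD34-, Cd16/32-) of C57BL/6 mice, sorted fresh. The comparisons ask how loss of Dnmt3a, a mutant Idh2, or both change methylation. Wild type mice were Mx1-cre+;Dnmt3af/f, so they too carried the recombinase and floxed Dnmt3a. Knockout mice were Mx1-cre+;Dnmt3a-/-, and Idh2 mutant mice were Mx1-cre-;Dnmt3af/f;Idh2 R140Q, without the recombinase. Each of these had 2 GMP and 2 MEP libraries. The double mutant, Mx1-cre+;Dnmt3a-/-;Idh2 R140Q, had 3 libraries of cells that the labels call malignant and that carry the MEP surface markers, and no GMP library. Their source label reads HSPCs (stem and progenitor cells), while that of every other group reads GMPs or MEPs. Comparisons of the double mutant with MEP groups thus match by surface markers and not by source label. Mx1-cre is switched on by interferon and acts in blood cells and other tissues. The labels give neither age nor sex, and call the libraries biological replicates without saying that each came from a separate animal, so p-values measure the spread between these libraries.

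Wild type libraries stood apart before any Pax gene was read. Reads on chromosome X were 2.21% to 2.25% of autosomal reads in wild type and 1.17% to 1.47% in the other 11 libraries, and chromosome Y reads were 54.0 to 57.5 in wild type and 199 to 386 elsewhere, scaled to 1000000 autosomal reads. All windows used here are autosomal, but wherever wild type is one side, genotype and sex-chromosome content change together and cannot be told apart. Libraries held 19306705 to 35204906 reads at CpGs, fewest in the single mutants (19306705 to 26086791). The median depth of a tested CpG was 30 to 51 reads. Reads of mitochondrial DNA, which gauge unconverted cytosines, were 0.280% to 3.27% methylated. PCR copies count as reads of their own, so that read numbers overstate the precision of a level. The sort was checked at start sites of marker genes, where only 5 of 12 GMP genes and 5 of 15 MEP genes had a tested window. Between wild type MEP and wild type GMP, 1 of 12 GMP marker windows and 0 of 9 MEP marker windows were called, beside 0.116% of all windows. The 1 call was at Prtn3, which averaged 1.34% in wild type GMP and 3.99% in wild type MEP over its 3 windows. So few marker windows, with 2 libraries a group, cannot show whether the sort held. In the double mutant against wild type MEP, 14.9% of all windows were called in either direction. Marker windows were called too: 3 of 12 of the GMP list, 2 of 9 of the MEP list, 0 of 2 of the B lineage list, 2 of 4 of the T lineage list and 3 of 12 of the stem list. The last 3 lists had windows at only 2 of 10, 2 of 7 and 4 of 7 genes. Whether these shares differ from that of all windows was not tested. Fcgr3, of the GMP list, averaged 26.5% (24.3% to 29.9%) against 9.79%, Bcl11b, of the T lineage list, 24.2% (18.5% to 28.2%) against 2.79%, and Itga2b, of the MEP list, 22.8% (17.6% to 27.9%) against 37.1%. All calls of the GMP, T lineage and MEP lists lay at these genes. Of the 3 stem list calls, 2 were at Mecom and 1 at Hoxa9. Over all its windows, Mecom averaged 13.1% (10.2% to 16.1%) against 2.27%. Hoxa9 averaged 11.9% (7.94% to 15.9%) against 2.15%. The other genes of the lists had no call and went both ways. Tcf7, of the T lineage list, had 8.10% against 9.68%. Of the GMP list, Prtn3 had 2.23% against 3.99% and Gfi1 5.50% against 0.442%. What a different mixture of cells adds to the Pax differences was not tested.

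The sequences of 7 windows are shown because the main differences rest on them. For each of the 6 genes with tested windows it is the window that differed most between double mutant and wild type MEP. At Pax9 the next window is shown, because the first holds untranslated exon, which is not shown. The last, with 4 of its 5 measured CpGs, is the window free of untranslated exon whose highest library was lowest. Each is the plus strand of mm9 (NCBIM37), read 5′ to 3′, and capitals mark the CpGs that reached 10 reads in each library.
Pax1, chr2:147191296-147191491: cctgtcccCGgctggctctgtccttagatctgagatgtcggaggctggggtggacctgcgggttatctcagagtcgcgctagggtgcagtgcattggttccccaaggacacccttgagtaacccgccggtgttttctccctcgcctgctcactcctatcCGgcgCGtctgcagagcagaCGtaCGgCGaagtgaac
Pax2, chr19:44823383-44823557: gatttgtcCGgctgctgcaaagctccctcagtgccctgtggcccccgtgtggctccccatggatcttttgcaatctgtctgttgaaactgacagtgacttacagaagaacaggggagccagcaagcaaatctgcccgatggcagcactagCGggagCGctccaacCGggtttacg
Pax3, chr1:78199655-78199789: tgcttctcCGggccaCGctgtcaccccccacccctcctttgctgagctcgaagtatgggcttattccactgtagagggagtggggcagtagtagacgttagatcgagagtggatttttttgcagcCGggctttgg
Pax6, chr2:105503344-105503515: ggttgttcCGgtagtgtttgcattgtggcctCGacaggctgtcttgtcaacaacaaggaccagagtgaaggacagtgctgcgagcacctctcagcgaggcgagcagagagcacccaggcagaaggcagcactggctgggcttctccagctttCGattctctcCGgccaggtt
Pax7, chr4:139313063-139313224: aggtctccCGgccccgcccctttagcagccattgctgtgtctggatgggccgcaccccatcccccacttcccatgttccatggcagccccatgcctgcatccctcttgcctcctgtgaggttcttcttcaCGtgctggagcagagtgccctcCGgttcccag
Pax9, chr12:57797312-57797426: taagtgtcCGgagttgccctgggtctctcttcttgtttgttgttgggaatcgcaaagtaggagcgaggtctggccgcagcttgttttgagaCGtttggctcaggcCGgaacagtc
Pax7, chr4:139392044-139392255: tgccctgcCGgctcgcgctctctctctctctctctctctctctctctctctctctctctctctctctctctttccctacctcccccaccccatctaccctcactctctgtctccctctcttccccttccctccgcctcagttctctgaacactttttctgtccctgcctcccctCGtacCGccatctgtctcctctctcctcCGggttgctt
Pax3 and Pax7 are transcribed from the other strand. The Pax1 stretch overlaps coding sequence and the Pax9 stretch an exon of the gene, at least in part. Here and below, coding or exon means that some bases overlap, not that the whole stretch or window does. The stretches of Pax2, Pax3 and Pax6 are upstream, the first Pax7 stretch is in an intron and the second upstream. Over all 40 windows, 96 of the 216 measured CpGs lay in CCGG, the site cut by MspI.

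Averaged over the 40 Pax windows, the methylation level was 27.2%, 31.0% and 28.5% in the 3 double mutant libraries and 9.21% to 15.5% in the other 12. The double mutant libraries lay apart from all the rest. By group, the order was 10.6% ± 1.95 (SD, n = 2) in knockout GMP, 11.2% ± 1.40 in knockout MEP, 12.7% ± 0.265 in wild type MEP, 12.8% ± 0.265 in wild type GMP, 15.4% ± 0.0130 in Idh2 mutant MEP, 15.4% ± 0.141 in Idh2 mutant GMP and 28.9% ± 1.93 (SD, n = 3) in the double mutant. Libraries spanned 9.21% to 12.2% in knockout, 12.5% to 13.0% in wild type and 15.3% to 15.5% in Idh2 mutant, so that the cell types overlapped within each genotype and the genotypes did not overlap. These means describe a chosen set of windows and carry no test. The mean over all 29251 windows was 43.4% ± 0.636 in the double mutant and 39.4% ± 1.03 in wild type MEP. There too the double mutant libraries, at 42.9% to 44.1%, lay above the other 12, at 38.7% to 42.3%. Idh2 mutant libraries (40.5% to 42.3%) lay above wild type (38.7% to 40.2%), and knockout (39.1% to 40.8%) overlapped with both. A lack of overlap is thus not particular to the Pax windows, except for knockout. The Pax windows therefore started far below the average window.

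**Figure D1:**
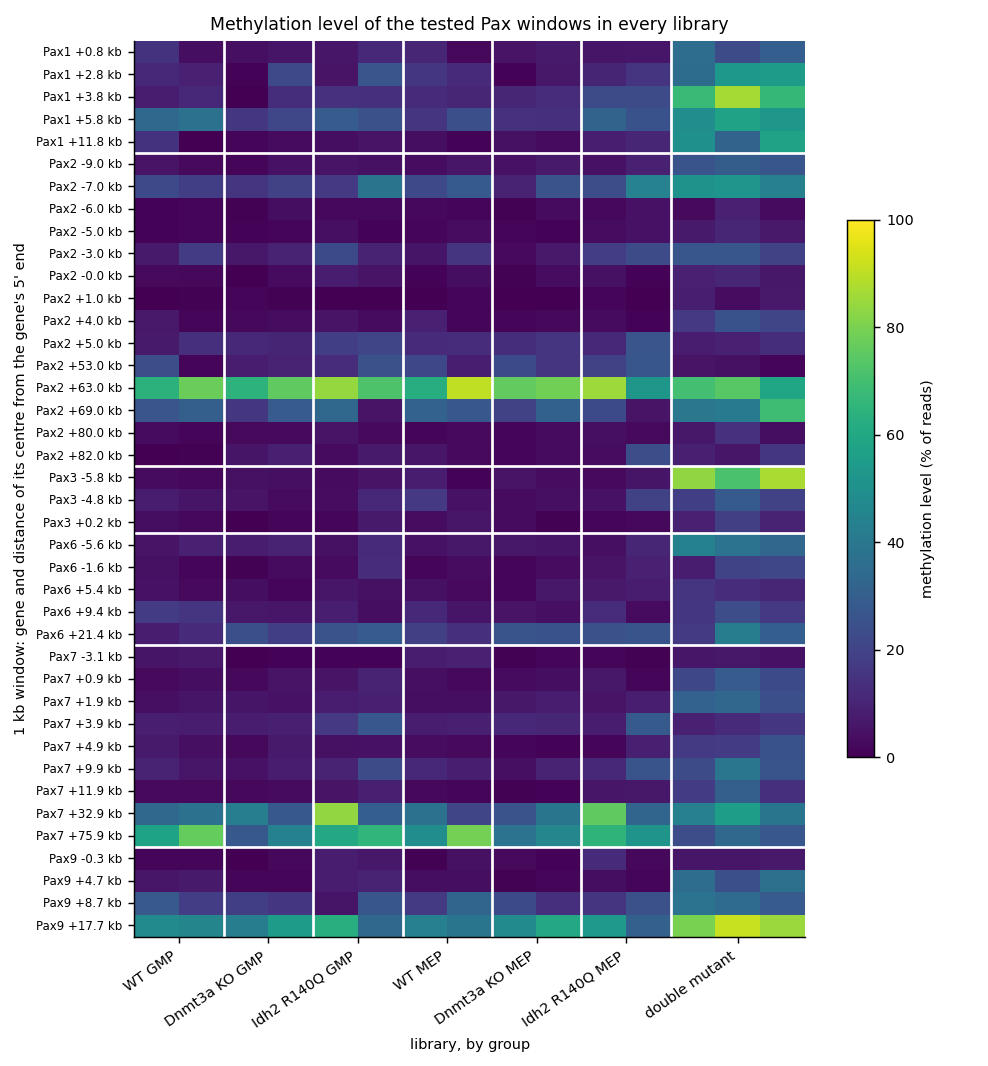
Methylation level (color, 0 to 100%) of the 40 tested Pax windows (rows, named by gene and distance of the window centre from the gene's 5′ end in kb) in 15 libraries (columns, by group). The 3 double mutant columns are lighter than the others in the rows of Pax1 and in the first row of Pax3 and of Pax6. In the last row of Pax7 they are darker than the MEP columns, but not than every GMP column.

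A window was called when its adjusted p, from a quasi-binomial model with Benjamini-Hochberg adjustment over all windows, was under 0.05 and its group means differed by at least 10 percentage points. Of the 40 Pax windows, 20 were called higher in the double mutant than in wild type MEP, where 12.8% of all windows were. A share of 2.5%, or 1 Pax window, was called lower, near the 2.11% of all windows. Against knockout MEP, 22 were higher and 0 lower (11.9% and 1.84% of all windows). Against Idh2 mutant MEP, 18 were higher and 0 lower (11.1% and 3.65% of all). The lower side had 1 and 3 Pax windows at an unadjusted p under 0.05 in the last 2 comparisons, and limma also called 0 lower in both. Other settings called up to 2 lower in each: 1 and 2 with 10 reads asked of the compared libraries only, 2 and 2 with windows of 1 CpG, and 1 and 2 without either wild type GMP replicate. All 6 genes with windows had at least 1 window called higher in each comparison. These comparisons share the double mutant libraries and are not independent.

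The median difference over the Pax windows was 13.9 points against wild type MEP, where the median of all windows was 1.34. Against knockout MEP it was 17.1 (all windows 0.349) and against Idh2 mutant MEP 10.6 (all windows 0.608). In 32 of the 40 windows every double mutant library was above both wild type MEP libraries, a pattern shown by 37.1% of all windows. The same held in 33 windows against knockout MEP (27.9% of all) and in 24 against Idh2 mutant MEP (31.0% of all). Windows below 10% in wild type GMP made up 26 of the 40 at Pax genes, or 65%, and 48.9% of all windows. Among those 26, 14 were called higher against wild type MEP, or 53.8%, beside 14.1% of all windows that low. Among the other 14, 6 were called, or 42.9%, beside 11.7%. The Pax windows were slightly richer in CpG, with a median observed to expected ratio of 0.525 against 0.472, and were read at a like depth, a median of 226 reads a window against 203. Their spread between replicates was wider, with a median dispersion of 4.74 against 2.45.

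**Figure D2:**
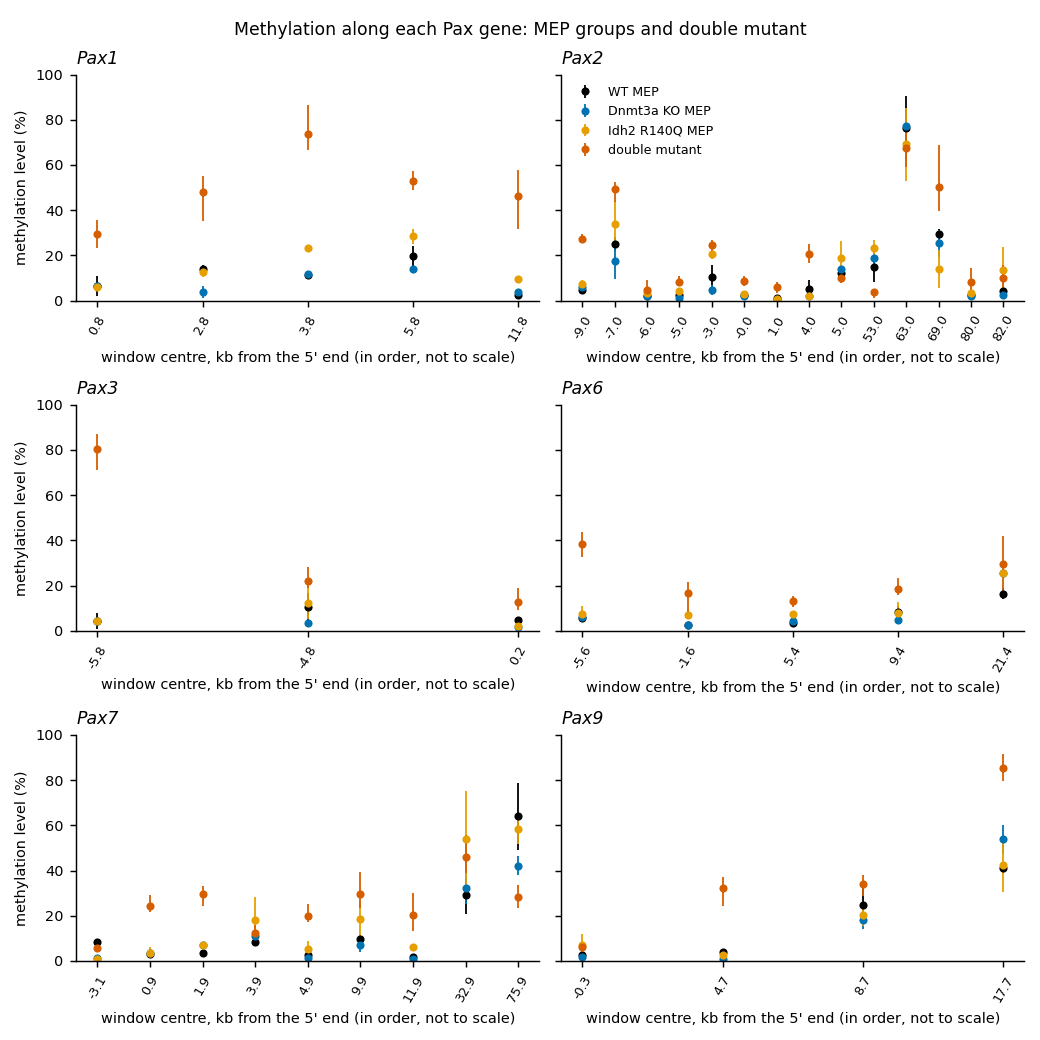
Methylation level (%, mean of the libraries, with bars from the lowest to the highest) of each tested window along 6 Pax genes in wild type, knockout and Idh2 mutant MEP and in the double mutant. Windows are in order of their distance in kb from the gene's 5′ end and are not to scale. Pax1 is above the other groups throughout, while Pax2 and Pax7 hold both raised and unraised windows.

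Pax1, a gene of the developing vertebrae and thymus pouch, was raised in every tested window, though not at every measured CpG around it. All 5 of its windows were called higher in the double mutant against each of the 3 MEP groups. Against Idh2 mutant MEP the call at chr2:147190001-147191000 was lost without either Idh2 mutant MEP replicate and with limma (adjusted p up to 0.116), and that at chr2:147199001-147200000 with limma (adjusted p = 0.0556). The mean over them was 50.2% ± 2.47 (SD, n = 3) in the double mutant and 10.8% ± 1.11 (SD, n = 2) in wild type MEP. The window with most CpGs near a start (chr2:147191001-147192000, coding exon, 6 CpGs) was also the one that moved most. Its level was 67.9%, 86.5% and 66.7% in the double mutant, 12.3% and 10.7% in wild type MEP, 10.6% and 12.6% in knockout MEP, and 23.4% and 23.0% in Idh2 mutant MEP. In GMP it was 7.57% and 11.7% in wild type, 0% and 13.2% in knockout, and 14.3% and 13.7% in Idh2 mutant. The double mutant did not overlap with any other group, and Idh2 mutant MEP lay between it and the rest. The difference from wild type MEP was 62.2 points (adjusted p = 5.34e-06), and from Idh2 mutant MEP 50.5 points (adjusted p = 8.27e-05).

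Each of the 6 CpGs in that Pax1 stretch was higher in the double mutant. The lowest mean among them was 61.6%, at the first CpG, where wild type MEP had 3.71%. The highest was 89.0%, at the fourth CpG, where wild type MEP had 25.3%. In Idh2 mutant MEP only the sixth CpG passed 50%, at 58.4%, and the first was at 4.17%. The second to sixth CpGs were covered by as few as 10 reads in a library, and the first by at least 40.

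Further along Pax1, the window at chr2:147199001-147200000 had 50%, 31.7% and 57.7% in the double mutant, against 3.53% and 1.14% in wild type MEP, 4.36% and 2.92% in knockout MEP and 8.33% and 10.7% in Idh2 mutant MEP. Double mutant libraries were again all above the others. The difference from wild type MEP was 44.1 points (adjusted p = 0.000421). The window across a Pax1 start site (chr2:147190001-147191000) was higher by 34.0 points (adjusted p = 0.00189), although limma did not call it (adjusted p = 0.131). A coding window at chr2:147193001-147194000 was higher by 33.4 points (adjusted p = 0.000259). The remaining window (chr2:147188001-147189000) is the first along the gene, centred 840 bp past the first Pax1 start. It is 356 bp from the start of the neighbouring gene AI646519, and was higher by 23.1 points (adjusted p = 0.00179).

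Pax9, which acts in palate, teeth and pharyngeal pouches, was raised inside the gene and less at its start. The start window (chr12:57792001-57793000, 5 CpGs) had 6.00%, 6.23% and 6.74% in the double mutant, 0.671% and 4.64% in wild type MEP, 2.48% and 1.04% in knockout MEP, and 11.7% and 1.97% in Idh2 mutant MEP. The double mutant lay inside the Idh2 mutant range, and the window was not called in any comparison. In the next window (chr12:57797001-57798000, 3 CpGs) the double mutant had 35.6%, 24.2% and 37.0%, wild type MEP 3.88% and 3.85%, knockout MEP 0.578% and 1.27%, and Idh2 mutant MEP 3.88% and 1.81%. This window was 28.4 points above wild type MEP (adjusted p = 0.000326), without overlap.

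Near the end of Pax9, a window that was partly methylated in all groups moved further. At chr12:57810001-57811000 the double mutant had 79.8%, 91.6% and 84.8%, wild type MEP 43.4% and 38.9%, knockout MEP 47.5% and 60.2%, and Idh2 mutant MEP 54.2% and 30.5%. No library of another group reached the double mutant range, since the highest elsewhere was 62.8% in Idh2 mutant GMP. The difference was 44.2 points from wild type MEP (adjusted p = 0.00104), 31.5 from knockout MEP (adjusted p = 0.0171) and 43.0 from Idh2 mutant MEP (adjusted p = 0.00307). The knockout call was lost without knockout MEP replicate 1 (adjusted p = 0.146), without double mutant replicate 2 and with the replicate number as a block, and the Idh2 mutant call without Idh2 mutant MEP replicate 2. Between these, the coding window at chr12:57801001-57802000 had 38.0%, 34.8% and 28.7% in the double mutant and 17.0% and 32.8% in wild type MEP, overlapping and not called.

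Pax2, a regulator of kidney and optic stalk, was raised upstream and little at its promoter. Its start window (chr19:44831001-44832000, 9 CpGs) had 8.41%, 3.17% and 6.65% in the double mutant and 0% to 1.82% in the other 12 libraries. The groups did not overlap, yet the gap of 5.08 points from wild type MEP was under the 10 points needed for a call (adjusted p = 0.0131). Farther upstream (chr19:44821001-44822000, 9 CpGs) the double mutant had 25.9%, 29.6% and 26.6%, and the other libraries 1.89% to 9.32%. That window rose by 22.8 points against wild type MEP (adjusted p = 2.09e-05), 21.4 against knockout MEP (adjusted p = 1.49e-05) and 20.2 against Idh2 mutant MEP (adjusted p = 0.000171).

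The Pax2 window of the largest change (chr19:44823001-44824000, 4 CpGs) had 51.5%, 52.6% and 43.7% in the double mutant, 22.1% and 28.2% in wild type MEP, 9.55% and 25.5% in knockout MEP, and 23.5% and 44.2% in Idh2 mutant MEP. The double mutant overlapped with Idh2 mutant MEP, whose second library was high. It was called against wild type MEP (24.1 points, adjusted p = 0.00949) and knockout MEP (31.7 points, adjusted p = 0.00363) and not against Idh2 mutant MEP. The first call was lost without wild type MEP replicate 1 and with limma, and the second without knockout MEP replicate 1. Its CpGs were unlike one another: the second of the 4 had 90.6% in the double mutant and 34.7% in wild type MEP, while the third had 38.3% and 42.1%.

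Between these upstream windows and the gene, Pax2 also held stretches that stayed low. The window at chr19:44824001-44825000 (8 CpGs) had 2.53%, 9.19% and 2.82% in the double mutant and 0.601% to 4.79% elsewhere, with no call. Just past a downstream start, the window at chr19:44834001-44835000 (6 CpGs) had 16.4%, 25.1% and 20.8% in the double mutant and at most 9.04% in any other library. It was higher by 15.5 points than wild type MEP (adjusted p = 0.00417), 18.9 than knockout MEP (adjusted p = 0.000449) and 18.9 than Idh2 mutant MEP (adjusted p = 0.000772). A window upstream at chr19:44827001-44828000 was called only against knockout MEP, by 19.7 points (adjusted p = 0.00639), and not without knockout MEP replicate 1. An intron window at chr19:44899001-44900000 was called only against Idh2 mutant MEP, by 36.2 points (adjusted p = 0.0157), a call also lost with limma, with the replicate number as a block and without Idh2 mutant MEP replicate 2 (adjusted p up to 0.294), whose level was 5.36% against 22.4% in replicate 1. Another intron window (chr19:44883001-44884000) had 5.10%, 4.60% and 1.30% in the double mutant and 8.25% to 26.9% in the 6 MEP libraries, lower without overlap but not called (adjusted p = 0.146 against wild type MEP).

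Pax8, the thyroid member of the same subgroup, had 1 CpG with 10 reads in all libraries, inside the gene, in the window chr2:24298001-24299000. Its level was 94.7% ± 9.12 (SD, n = 3) in the double mutant and 87.0% ± 1.30 (SD, n = 2) in wild type MEP, from 13 to 43 reads a library. No CpG of the Pax8 start was measured at that depth. When 10 reads were asked of the compared libraries only, Pax8 had 2 windows against wild type MEP and 0 of them were called.

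Pax3, which specifies neural crest and muscle precursors, held the largest change of all Pax windows. It lies upstream of the gene (chr1:78199001-78200000, 3 CpGs). The double mutant had 83.5%, 71.1% and 87.2%, wild type MEP 7.64% and 0.889%, knockout MEP 5.38% and 3.51%, and Idh2 mutant MEP 2.68% and 5.56%. GMP libraries had 2.76% and 2.14% in wild type, 4.62% and 4.17% in knockout, and 3.08% and 5.45% in Idh2 mutant. A window that was nearly free of methylation in 12 libraries was mostly methylated in the other 3. The difference was 76.3 points from wild type MEP (adjusted p = 8.21e-07), 76.1 from knockout MEP (adjusted p = 2.7e-06) and 76.5 from Idh2 mutant MEP (adjusted p = 4.36e-06).

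The 3 CpGs of that Pax3 stretch had 80.1%, 77.2% and 82.9% in the double mutant and 6.26%, 1.35% and 4.53% in wild type MEP. All moved alike. At the Pax3 start (chr1:78193001-78194000, 8 CpGs) the double mutant had 9.19%, 19.1% and 9.46%, wild type MEP 3.43% and 6.23%, knockout MEP 3.11% and 0.623%, and Idh2 mutant MEP 1.93% and 2.15%. The double mutant was above all MEP libraries by a much smaller margin, with a call against knockout MEP (10.7 points, adjusted p = 0.00592) and Idh2 mutant MEP (10.5 points, adjusted p = 0.0124) but not wild type MEP. Both calls were lost without double mutant replicate 2, the highest of the 3. The knockout call was also lost without knockout MEP replicate 2, and the Idh2 mutant call without either Idh2 mutant MEP replicate and with limma. The third window (chr1:78198001-78199000) had 18.7%, 28.4% and 19.5%, beside 16.5% and 4.77% in wild type MEP and 5.08% and 19.5% in Idh2 mutant MEP, and was called only against knockout MEP (18.7 points, adjusted p = 0.00527), not without knockout MEP replicate 1.

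**Figure D3:**
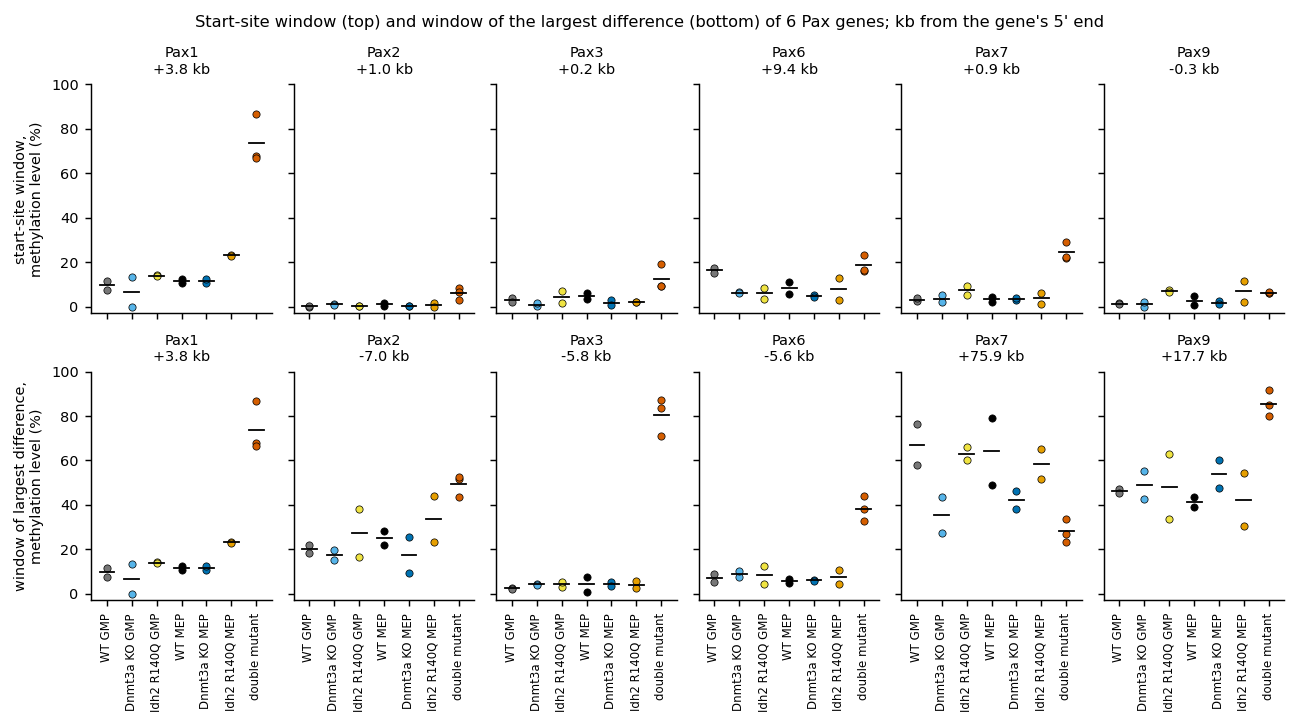
Methylation level (%) in each library (points) and group mean (lines) of the start-site window (top) and of the window with the largest difference between double mutant and wild type MEP (bottom) of 6 Pax genes, with the distance from the gene's 5′ end in kb. For Pax1 both are the same window. The double mutant is at 71.1% to 87.2% in the Pax3 window and at 6.00% to 6.74% in the Pax9 start window.

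Pax7, which maintains muscle satellite cells, was raised over the first part of the gene. The start window (chr4:139388001-139389000, 9 CpGs) had 21.7%, 29.2% and 22.5% in the double mutant, 4.24% and 2.24% in wild type MEP, 2.87% and 3.81% in knockout MEP, and 6.25% and 1.21% in Idh2 mutant MEP. No other library exceeded 9.43%. The difference was 21.2 points from wild type MEP (adjusted p = 4.08e-05), 21.1 from knockout MEP (adjusted p = 0.000133) and 20.7 from Idh2 mutant MEP (adjusted p = 0.000157). The next window into the gene (chr4:139387001-139388000, 5 CpGs) had 31.4%, 33.2% and 24.3% in the double mutant and at most 8.71% elsewhere, 25.9 points above wild type MEP (adjusted p = 8.18e-06).

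Deeper in the first introns of Pax7, the window at chr4:139377001-139378000 held 15 CpGs, more than any other Pax window. It had 17.6%, 30.2% and 13.4% in the double mutant, 2.11% and 1.65% in wild type MEP, 0.452% and 1.05% in knockout MEP, and 6.16% and 6.41% in Idh2 mutant MEP. The double mutant was highest without overlap. Its difference was 18.5 points from wild type MEP (adjusted p = 0.000121), 19.7 from knockout MEP (adjusted p = 3.7e-05) and 14.1 from Idh2 mutant MEP (adjusted p = 0.00418). The last call was lost without Idh2 mutant MEP replicate 2 or double mutant replicate 2. The windows at chr4:139379001-139380000 and chr4:139384001-139385000 were higher than wild type MEP by 19.7 points (adjusted p = 0.0126) and 17.2 points (adjusted p = 0.00714). The first of these lost its call without either wild type MEP replicate or double mutant replicate 2.

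The single fall among the Pax windows was far inside Pax7, in an intron (chr4:139313001-139314000, 3 CpGs). The double mutant had 23.5%, 33.7% and 27.1%, wild type MEP 49.2% and 78.9%, knockout MEP 38.1% and 46.2%, and Idh2 mutant MEP 65.1% and 51.9%. In GMP, wild type had 58.0% and 76.3%, knockout 27.5% and 43.8%, and Idh2 mutant 60.2% and 65.9%. Every knockout library was below every wild type library, and the double mutant was below knockout MEP. Knockout against wild type over both cell types was not called (a difference of -26.7 points, adjusted p = 0.0715). The window fell by 35.9 points against wild type MEP (adjusted p = 0.00559), but without wild type MEP replicate 2 it was not called (adjusted p = 0.111). Within the stretch the second CpG had 10.1% in the double mutant and 70.3% in wild type MEP, while the third had 75.9% and 84.5%. The first had 13.9% in the double mutant and a mean of 48.4% in wild type MEP, whose 2 libraries were far apart at 15.7% and 81.0%.

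Upstream of Pax7 the pattern was different. The window at chr4:139392001-139393000 (5 CpGs) had 5.6% and 7% in the GMP and 7.86% and 9.02% in the MEP libraries of wild type, and 5.93%, 6.44% and 4.80% in the double mutant, but only 0% to 1.74% in the 8 single mutant libraries. All differences were under 10 points, so none was called, although the adjusted p was 0.00192 for knockout against wild type over both cell types and 0.00129 for Idh2 mutant against wild type. The level came from 1 CpG, the first in the last sequence above. Wild type averaged 28.0% there in GMP and 33.8% in MEP and the double mutant 31.4%, while the 4 single mutant groups averaged 2.04% to 8.77%. The other 4 CpGs were at 3.33% or less in every group. This split also follows the read totals, which were 28001420 or more in wild type and double mutant and lower in all single mutants, and its part in the result was not tested. Over all windows, 0.561% had every wild type and double mutant library above every single mutant library.

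Pax6, the eye and pancreas regulator, was raised most upstream of its first start. At chr2:105503001-105504000 (4 CpGs) the double mutant had 43.9%, 38.3% and 32.8%, wild type MEP 4.85% and 6.59%, knockout MEP 6.38% and 5.83%, and Idh2 mutant MEP 4.22% and 10.8%. No GMP library passed 12.3%. The difference was 32.6 points from wild type MEP (adjusted p = 1.68e-05), 32.2 from knockout MEP (adjusted p = 0.000111) and 30.8 from Idh2 mutant MEP (adjusted p = 0.000171). One of its 4 CpGs hardly moved, with 3.96% in the double mutant and 0% in wild type MEP, while the others had 37.5%, 64.7% and 56.4%.

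The Pax6 windows nearer the starts changed less. The start window with most CpGs (chr2:105518001-105519000, 5 CpGs) had 16%, 23.4% and 16.6% in the double mutant, 11.0% and 5.59% in wild type MEP, 5.35% and 4.14% in knockout MEP, and 12.8% and 3.05% in Idh2 mutant MEP. Wild type GMP, with 17.3% and 15.3%, reached into the double mutant range. It was called against all 3 MEP groups, but its adjusted p against wild type MEP was 0.0483 at a difference of 10.4 points, and 19 of 23 alternative settings lost that call. Against Idh2 mutant MEP the adjusted p was 0.0497 and 21 of 23 settings lost the call, and against knockout MEP it was lost without either knockout MEP replicate. The window at chr2:105507001-105508000 was higher by 14 points than wild type MEP (adjusted p = 0.00519), a call lost without wild type MEP replicate 1. In an untranslated exon window (chr2:105530001-105531000) the double mutant had 17.1%, 41.9% and 29.7% and overlapped with wild type MEP at 18.9% and 13.9%, and its call (13.2 points, adjusted p = 0.0461) was lost in 19 of 22 alternative settings.

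Pax4, the beta cell partner of Pax6, had 2 CpGs in 1 window (chr6:28390001-28391000), with 88 to 180 reads a library. The level was 96.5% ± 2.26 (SD, n = 3) in the double mutant, 87.1% ± 5.03 (SD, n = 2) in wild type MEP, 85.3% ± 4.52 in knockout MEP and 78.4% ± 2.73 in Idh2 mutant MEP. The CpGs are downstream of the gene and highly methylated in all groups. With fewer than 3 CpGs the window was not tested. When 10 reads were asked of the compared libraries only, Pax4 had 1 window against wild type MEP, which was not called. It had 1 against Idh2 mutant MEP, called higher, and 0 against knockout MEP.

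Just inside the limit of 10 points against wild type MEP were the Pax6 windows with 10.4 and 13.2 points named above, and just outside were a Pax6 window at a start (9.39 points, adjusted p = 0.0195) and the Pax2 window at the first start (6.45 points, adjusted p = 0.0170).

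In the single mutants few Pax windows were called, as over all windows, so these counts do not set the Pax genes apart. For knockout against wild type over GMP and MEP, 0 Pax windows were called higher and 0 lower, where 0.571% and 1.00% of all windows were. At an unadjusted p under 0.05 there were 1 higher and 5 lower, and limma called 0, beside 0.171% of all windows. The median difference was -0.641 points, beside 0.274 for all windows. For Idh2 mutant against wild type, 1 Pax window was called higher and 0 lower, against 3.03% and 0.660% of all windows, with 8 and 2 at an unadjusted p under 0.05. The median was 1.66 points, beside 0.515 for all windows. Both comparisons share the wild type libraries.

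The window called for Idh2 mutant overlaps coding sequence of Pax7 (chr4:139385001-139386000, 4 CpGs). Its level was 16.4% and 27.2% in Idh2 mutant GMP and 7.64% and 28.4% in Idh2 mutant MEP, against 8.40% and 8.14% in wild type GMP and 8.02% and 8.59% in wild type MEP. The first Idh2 mutant MEP library was inside the wild type range. The difference was 11.6 points (adjusted p = 0.0326), and 17 of 26 alternative settings lost the call. Among these were the replicate number as a block and the sum of the GMP and MEP library of a number, and replicate 2 was the higher one in both cell types. The double mutant, with 9.09%, 12.2% and 15.8%, was not called there.

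Between wild type MEP and wild type GMP no difference at these genes was detectable. By the quasi-binomial model 0 Pax windows were called higher and 0 lower, with 0.0923% and 0.0239% of all windows called. At an unadjusted p under 0.05 there were 1 higher and 1 lower. With limma 0 of all 29251 windows were called, so its count says nothing of the Pax genes. The widest gap between cell types was at Pax1, chr2:147193001-147194000, with 33.3% and 37.3% in GMP and 15.2% and 24.2% in MEP.

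Whether the effect of the Idh2 mutation differed with and without Dnmt3a was tested as an interaction over the 4 groups with MEP markers, after the levels had been seen. Only the double mutant cells are labelled malignant and only Idh2 mutant mice lacked the recombinase, which cannot be told apart from such an interaction. The test passed, at an adjusted p under 0.05, in 10 of the 40 Pax windows, all with more methylation in the double mutant than the sum of the single mutant differences, and 5.32% of all windows passed on that side. The 10 were 3 windows of Pax1, 2 of Pax3, 2 of Pax7 and 1 each of Pax2, Pax6 and Pax9. At the upstream Pax3 window the double mutant exceeded the sum by 76.3 points (adjusted p = 0.0135), with means of 4.45% in knockout, 4.12% in Idh2 mutant and 4.27% in wild type MEP. At the Pax1 coding window the excess was 50.4 points (adjusted p = 0.0183). With 1 library left out, 3 to 9 Pax windows passed above the sum, while the share of all windows also moved, from 2.2% without wild type MEP replicate 2 to 5.29% without double mutant replicate 3. Leaving out wild type MEP replicate 1 or knockout MEP replicate 1 gave 3, wild type MEP replicate 2 gave 4, knockout MEP replicate 2 gave 5, and either wild type GMP replicate gave 6.

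**Figure D4:**
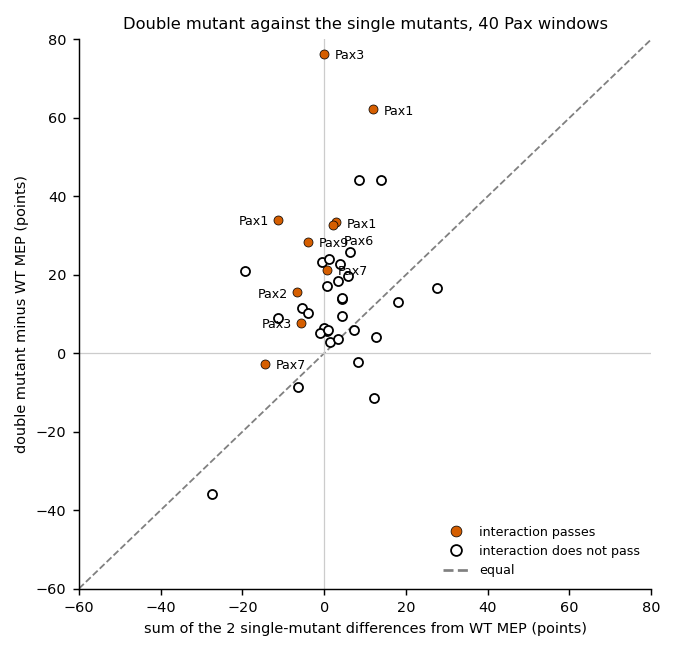
Difference of the double mutant from wild type MEP (y, percentage points) against the sum of the knockout and Idh2 mutant differences (x, percentage points) for the 40 Pax windows. Filled points passed the interaction test, which is on log odds and not on the points plotted. The dashed line marks equal values. The upstream Pax3 window is highest, at 76.3 points on y, and the Pax7 intron window lowest, at -35.9.

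Genes that work with the Pax factors were read in the same way. A list of 58, chosen for shared pathways (Six3, Eya, Msx, Meox, muscle, kidney, thyroid, pancreas and eye genes and Pax5), had 49 genes with 192 tested windows. Of these windows 92 were called higher and 1 lower in the double mutant against wild type MEP, or 47.9% and 0.521%, beside 12.8% and 2.11% of all windows. Against knockout MEP 90 were higher and 1 lower (46.9% and 0.521%, beside 11.9% and 1.84% of all), and against Idh2 mutant MEP 76 and 1 (39.6% and 0.521%, beside 11.1% and 3.65%). Idh2 mutant against wild type over both cell types called 7 higher, or 3.65%, near the 3.03% of all windows. The median difference from wild type MEP was 10.4 points, beside 13.9 for the Pax windows and 1.34 for all windows.

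The largest change in that list was at Sox9, a cartilage and testis factor, with 69.2% (47.4% to 89.2% over libraries) in the double mutant against 1.71% in wild type MEP. Otx2, an eye and forebrain factor, had 2 windows with 70.7% against 11.3% and 62.1% against 11.8%. Pdx1, of the pancreas, had 68.2% against 11.8%. Six3, of the eye field, had 64.8% against 9.14% and 55.6% against 3.62%. Each was called (adjusted p from 1.35e-06 to 0.000308). Among those 7 Idh2 mutant calls, Nkx6-1 rose by 18.3 points (adjusted p = 0.0215), Msx1 by 14.3 (adjusted p = 0.0266) and Meox1 by 13.2 (adjusted p = 0.0264). At Meox1, a partner of Pax1 and Pax3 in the somites, another window was the one called lower in the double mutant, by 16 points (adjusted p = 0.0153).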

How the data were processed

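Reduced representation bisulfite libraries of 15 progenitor samples were aligned to mm9 with BSMAP 2.74, per the submitters' processing notes. The values used are the deposited counts of methylated and of all reads per CpG cytosine (columns 7 and 8), which stop at 65535; the sources used here give no removal of duplicates, trimming or filters. Both strands of a CpG were summed, CpGs with 10 reads in all libraries were summed in 1 kb windows, and windows took genes from GENCODE vM1 with 10 kb flanks. A level is methylated over all reads. A quasi-binomial logistic model with 1 mean for each of 7 groups (8 residual degrees of freedom, dispersion squeezed with 5.33 prior degrees of freedom and held at 1 or more) was fitted to 29251 autosomal windows in Python 3.11.15 with numpy 2.4.6 and scipy 1.17.1, with F tests and Benjamini-Hochberg adjustment. It was tested on simulated data. limma 3.58.1 was an alternative, on log2 ratios with a pseudocount of 1 computed from the deposited counts. The members and gene lists were chosen with earlier results of these data known. Windows named are, per gene, the one with most CpGs near a start and up to 4 called per comparison. Windows chr2:147188001, chr12:57801001, chr19:44824001 and chr19:44883001 were added after their values were seen.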

Additional observations from a re-analysis of the deposited data

Results flagged for a closer look

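The difference between Idh2 mutant and normal Idh2 in MEP was itself different with and without Dnmt3a in 10 Pax windows. The interaction was tested on log odds in the quasi-binomial model (Benjamini-Hochberg adjusted p from 0.00131 to 0.0498), and the excesses below are in points. The double mutant exceeded the sum of the single mutant differences from wild type MEP by 45.3, 50.4 and 30.6 points in the Pax1 windows at chr2:147190001, 147191001 and 147193001. The excess was 22.3 points at Pax2 (chr19:44834001), 13.5 points at the Pax3 start (chr1:78193001) and 76.3 points upstream of Pax3 (chr1:78199001). It was 30.5 points at Pax6 (chr2:105503001), 20.6 points at the Pax7 start (chr4:139388001), 11.8 points upstream of Pax7 (chr4:139392001) and 32.3 points at Pax9 (chr12:57797001). At the upstream Pax7 window the double mutant mean was 5.72% and that of wild type MEP 8.44%, while knockout MEP had 1.25% and Idh2 mutant MEP 1.07%, so the double mutant was not above wild type there. Both single mutant falls together exceed the wild type level, so in points any double mutant level lies above the sum. Both comparisons behind each value share no library, but the 4 groups differ in sex-chromosome content and read totals as described above, and their part in the result was not tested. Among the 4 groups only the double mutant cells are labelled malignant, and only the Idh2 mutant mice lacked the recombinase. This design cannot tell either from an interaction of the mutations.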

How the results depend on the processing

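None of the counts or of the named windows followed through the alternatives reversed; the other called windows and the single interaction windows were not followed one by one. Shares in parentheses are of all windows under the same setting. Asking for 20 reads per CpG left 21 Pax windows and 9, 10 and 9 calls for the double mutant against wild type, knockout and Idh2 mutant MEP (13.9%, 13% and 14.2%). Asking for 10 reads in the compared libraries only gave 37 of 72 (14.6%) and, against Idh2 mutant MEP, 32 of 62 (14.2%). Windows with 1 CpG gave 38 and 36 of 77 against wild type and knockout MEP (14.1% and 10.6%), and 2 for Idh2 mutant against wild type (3.15%). A minimum of 25 points gave 10, 9 and 8 calls (5.49%, 5.91% and 5.98%), and 0 for Idh2 mutant against wild type (1.04%). That comparison also gave 0 with limma, with the replicate block, with depth capped at 50 reads, in GMP alone, in MEP alone and with the GMP and MEP library of 1 title prefix summed (0.759% to 3.35%). Knockout against wild type gave 1 with depth capped (1.24%). Leaving out 1 library gave 17 to 21, 14 to 23 and 11 to 19 calls for the double mutant comparisons in the same order, 0 to 1 for knockout, 0 to 2 for Idh2 mutant and 0 for MEP against GMP. The lowest double mutant counts were 14 without knockout MEP replicate 1 (9.31%) and 11 without Idh2 mutant MEP replicate 2 (9.99%). The 1 for knockout was without wild type MEP replicate 1 (1.11%). Apart from the number of windows tested, the cause of these changes was not tested. Of the 18, 20 and 17 windows named in the double mutant comparisons, 12, 12 and 10 kept their call with each library left out. Replicate numbers tied GMP to MEP in wild type and Idh2 mutant, where same-numbered deviations over 8835 windows correlated at 0.384 and 0.501, but not in knockout (-0.048) or across genotypes (-0.039 to 0.017), so they were not taken as pairs throughout. Tests over both cell types treat such libraries as independent. With the replicate block the 3 double mutant comparisons had 18, 21 and 15 calls (12.2%, 11.4% and 11.6%). The interaction passed in 5 Pax windows with 20 reads per CpG and in 5 with the replicate block (4.99% and 3.7%). Depth limits what can be said of Pax4 and Pax8, and CpGs with 10 reads carry single-library errors of many points.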

Other observations

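Windows with 1 or 2 measured CpGs were not tested, and the following were chosen after their levels were seen. Upstream of Pax3, 1 CpG in chr1:78196001-78197000 had 64.5% ± 18.6 (SD, n = 3) in the double mutant and 0.833% ± 1.18 (SD, n = 2) in wild type MEP. The next window, chr1:78197001-78198000, had 69.5% ± 20.2 and 8.54% ± 8.72. Upstream of Pax2, 1 CpG (chr19:44826001-44827000) had 66.9% ± 5.98 and 14.6% ± 9.94, and 1 near the Pax7 start (chr4:139389001-139390000) 69.6% ± 9.28 and 13.3% ± 2.63. In the other direction, 1 CpG of Pax6 (chr2:105536001-105537000) had 55.3% ± 9.85 in the double mutant and 93.3% ± 5.02 in wild type MEP. Inside Pax7, 1 CpG (chr4:139317001-139318000) had 15.7% ± 15.2 in the double mutant, 16.7% ± 11.8 in knockout MEP and 86.1% ± 1.18 in wild type MEP.

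The Idh2 mutant libraries with the same number were alike in both cell types at some Pax windows. At Pax7, chr4:139356001-139357000, replicate 1 had 83.9% in GMP and 75.4% in MEP, and replicate 2 had 29.9% and 32.7%. At Pax2, chr19:44899001-44900000, replicate 1 had 33.3% and 22.4%, and replicate 2 had 5.15% and 5.36%. Upstream of Pax1, 1 CpG (chr2:147184001-147185000) had 93.8% ± 4.42 in Idh2 mutant GMP and 95.8% ± 5.89 in Idh2 mutant MEP, against 52.5% ± 14.1 and 59.7% ± 3.62 in wild type and 29.1% ± 9.50 in the double mutant.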
